A study of Danio rerio with 8 samples.

Results

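Epicardium and heart valve genes are the 10 zebrafish genes tcf21, tbx18, wt1a, wt1b, klf2a, klf2b, notch1b, nfatc1, has2 and bmp4. Their rows were found by gene symbol, and each symbol matched 1 row, so there were 10 members among the 25725 genes listed. RNA was sequenced from 8 samples of zebrafish at 5 days postfertilization whose tissue is labelled heart. In the control group 4 samples had been given the solvent DMSO. In the exposed group 4 samples had been given TCDD (2,3,7,8-tetrachlorodibenzo-p-dioxin, a dioxin that binds the aryl hydrocarbon receptor). In both groups the exposure began at 2 hours postfertilization, and its end is not stated here. The strain, the dose of TCDD, the number of larvae pooled into a sample and any division into clutches were not given in the sources used here. Each p value therefore sets the difference between the groups against the spread among these samples only, which may be technical.

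The epicardium is the outer cell layer of the heart. It spreads over the heart muscle from the proepicardium, a cluster of mesothelial cells, and is recognised by transcription factors such as Tcf21, Tbx18 and Wt1. Heart valves form from the endocardium, the inner lining, at the atrioventricular canal: blood flow induces klf2a, Notch and calcineurin-NFAT signalling act in the endocardial cells, Bmp4 comes from the canal's heart muscle, and the hyaluronan made by Has2 fills the cushion between both layers. Exposure of zebrafish embryos to TCDD is known to block the formation of the epicardium and to disturb that of the valves.

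The total estimated count per library was 14048563 to 15183023, and the floor of detection, set at 3 counts, came to 0.198 to 0.214 CPM (the count scaled to library size). In a principal component analysis DMSO 1 and TCDD 2 stood apart from the other 6 libraries on the second component, at 45.8 and 32 against -29.5 to 1.3. Transcripts of other organs were abundant. On library size alone, the summed CPM of 6 liver markers was 25009 to 38889 over the 8 libraries, and most of it was the apolipoprotein gene apoa1b. It was 6740 to 9247 CPM for 5 skin markers, 6872 to 9910 CPM for 6 skeletal muscle markers and 4366 to 8171 CPM for 7 cartilage markers. The sum was 918 to 1650 CPM for 9 cardiomyocyte markers and 88.8 to 128 CPM for 5 epicardial markers (tcf21, tbx18, wt1a, wt1b and aldh1a2). Most of the epicardial sum was the retinoic acid synthesis gene aldh1a2, whose values are given below. None of these heart markers was at 0 in any library, but most of the members are also used outside the heart, so their values are those of the sampled material. In bulk RNA, fewer cells of a type and less RNA per cell cannot be told apart.

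Of the 10 members, 1 rose, 1 fell and 8 did not pass the test. The T-box gene tbx18 rose and the hyaluronan synthase gene has2 fell, at adjusted p under 0.05 by edgeR's quasi-likelihood test (Benjamini-Hochberg over the 20522 genes tested). Of all genes tested 5.72% were called by this rule, 2.99% as higher and 2.73% as lower. Counts of called genes in the pathway and marker lists below are to be set against these same shares. All 10 members passed the filter on low counts. Without adjustment 7 of 10 had p under 0.05, against 22.0% of all genes. In TMM-scaled CPM, 5 of 10 had all 4 TCDD libraries above or below all 4 DMSO libraries, against 14.0% of all genes. The median log2 fold change of TCDD against DMSO was -0.32 over the 10 members and 0.00 over all genes tested, and the median size of the change, without its sign, was 0.45 and 0.20. DESeq2 called 6 of 10 (klf2a, klf2b, nfatc1 and bmp4 beside tbx18 and has2), against 9.66% of all genes, and limma-voom called tbx18 alone. The members and the lists below were chosen with earlier results of these data known. Shares above those of all genes are therefore not independent support for a change. In the text that follows, CPM is on TMM-scaled library sizes and given as mean ± SD over n = 4 samples of a group, each log2 fold change compares TCDD with DMSO and has its SE, and adjusted p values are edgeR's unless another tool is named.

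**Figure D1:**
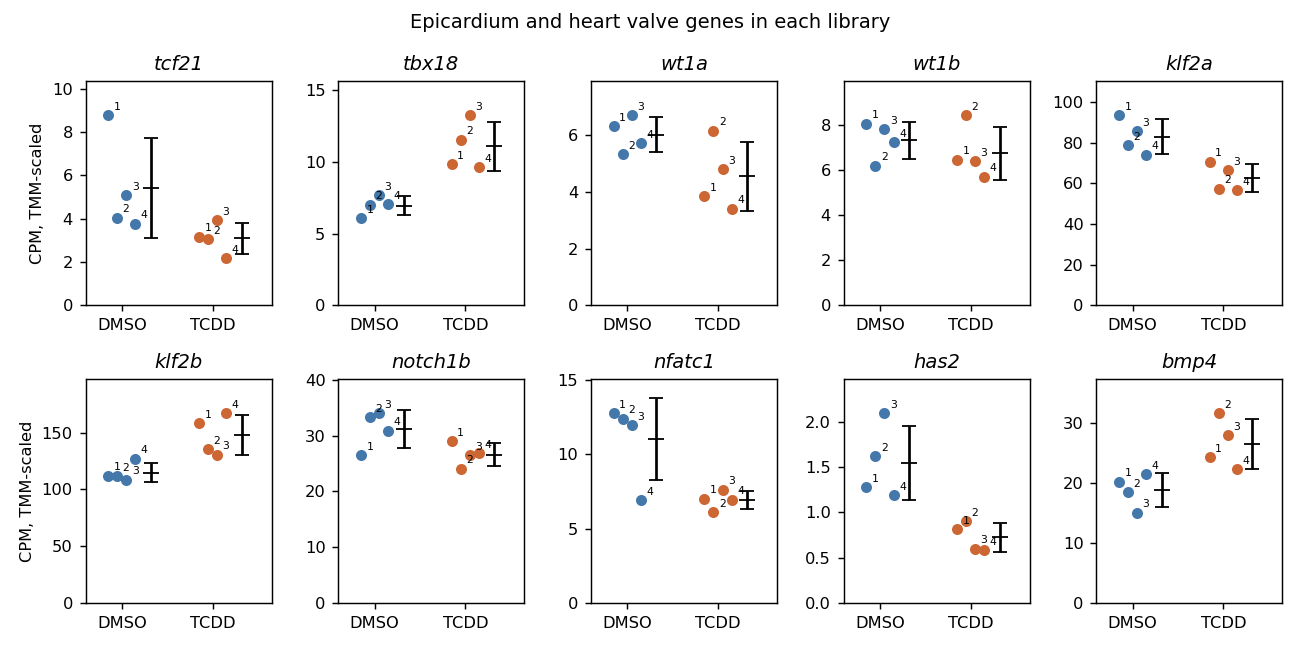
CPM of each of the 10 genes (vertical axes from 0, TMM-scaled) in the 4 DMSO and 4 TCDD libraries, with the replicate number beside each point and the mean ± SD as a bar to the right. The groups do not overlap for tbx18, klf2a, klf2b, has2 and bmp4, and DMSO 1 (tcf21) and DMSO 4 (nfatc1) lie away from the rest of their group.

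Levels between genes were compared on the deposited TPM, which is scaled for transcript length. In DMSO the flow-induced zinc finger genes klf2a (41.5 ± 6.08 TPM, SD) and klf2b (33.2 ± 6.63 TPM) had the highest levels. They were followed by bmp4 (6.72 ± 1.43 TPM), tcf21 (6.15 ± 1.42 TPM), nfatc1 (3.92 ± 1.26 TPM), wt1a (3.84 ± 0.580 TPM), wt1b (3.79 ± 0.440 TPM), tbx18 (3.31 ± 0.816 TPM) and notch1b (2.81 ± 0.778 TPM), and has2 had the lowest level (0.593 ± 0.214 TPM). The gaps from klf2b to bmp4 and from notch1b to has2 were larger than the spread, whereas every other pair of neighbours in this order overlapped in range. Of all genes, 91.9% had a lower mean TPM than klf2a in DMSO, 50.8% a lower one than tbx18 and 25.1% a lower one than has2. In TCDD the order differed: klf2b (52.6 ± 7.70 TPM) stood above klf2a (38.8 ± 3.64 TPM) with no overlap. Next after bmp4 (11.7 ± 1.6 TPM) came tbx18 (6.40 ± 0.980 TPM). Within each of the 4 libraries tbx18 was above tcf21 (4.51 ± 1.0 TPM), but their ranges overlapped (5.48 to 7.73 and 3.39 to 5.82 TPM). TPM values are shares of all transcripts in a library and carry no TMM factor. On this scale klf2a overlapped between the groups, while in TMM-scaled CPM it did not. On library size alone it overlapped too: TCDD 1 (1046 of 14331225 counts) stood above DMSO 4 (1062 of 14650013). The lack of overlap in CPM thus depended on the TMM factors, and the cause of the overlap in TPM was not tested. The median TPM over all genes was 3.18 in DMSO and 3.93 in TCDD, so a higher TPM in TCDD is not by itself a rise of that gene.

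Of the 4 epicardial transcription factor genes 1 rose and 3 did not pass the test. Tbx18, encoded by tbx18 (NCBI gene 572713), is a T-box factor of the proepicardium and epicardium that is also used in mural cells and in the developing body wall. Its levels were 6.07, 7.01, 7.69 and 7.05 CPM in DMSO and 9.86, 11.6, 13.3 and 9.65 CPM in TCDD. Every TCDD library was above every DMSO library, and tbx18 rose by 0.67 ± 0.15 on the log2 scale (6.95 ± 0.666 CPM in DMSO, 11.1 ± 1.69 CPM in TCDD; adjusted p = 0.0207). The sign was the same in all 18 other fits (0.568 to 0.792), 15 of which called it. The call was lost in 3 fits with fewer samples, those leaving out TCDD 2 (adjusted p = 0.0732), TCDD 3 (0.0727) or DMSO 1 together with TCDD 2 (0.0921).

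The basic helix-loop-helix factor gene tcf21 (NCBI gene 558148), which marks epicardial cells and also the head muscle precursors of the pharyngeal arches, had its values on the other side. Its levels were 8.79, 4.04, 5.10 and 3.77 CPM in DMSO and 3.17, 3.05, 3.93 and 2.19 CPM in TCDD. The groups overlapped, since TCDD 3 was above DMSO 4, and DMSO 1 was higher than every other library. The difference did not pass (-0.81 ± 0.28, adjusted p = 0.122), and without DMSO 1 it was -0.481 (adjusted p = 0.242). The implied transcript length of tcf21 was 815 bases. The 3084 tested genes below 1000 bases of implied length had a median change of -0.21 on the log2 scale, and genes of that length held 34.0, 23.7, 28.8 and 29.7% of the counts in the DMSO libraries and 24.99, 24.3, 23.5 and 23.7% in the TCDD libraries. Thus 3 of 4 DMSO libraries were above every TCDD library, and DMSO 2 was within the TCDD range. With offsets for length the value of tcf21 was -0.637 (adjusted p = 0.165), and the part of length in it was not tested further.

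The paralogs wt1a (NCBI gene 30245) and wt1b (NCBI gene 568416) encode zinc finger factors that the epicardium shares with the podocytes, the filtering cells of the kidney. For wt1a the libraries held 6.31, 5.32, 6.71 and 5.73 CPM in DMSO and 3.85, 6.17, 4.80 and 3.41 CPM in TCDD. TCDD 2 alone reached the DMSO range, and the difference did not pass (-0.40 ± 0.19, adjusted p = 0.248; 0.127 without TCDD 2). The values of wt1b were 8.07, 6.20, 7.83 and 7.26 CPM in DMSO and 6.48, 8.45, 6.40 and 5.73 CPM in TCDD, with a wide overlap (-0.12 ± 0.16, adjusted p = 0.716). Its sign was not stable, since the log2 fold change was 0.018 with library size alone. Each paralog can also be read against the other within a library. The log2 ratio of wt1a to wt1b in CPM was -0.28 ± 0.073 (SD) in DMSO and -0.58 ± 0.18 in TCDD, with no overlap between the groups. The difference of -0.30 gave p = 0.0286 in an exact permutation test (two-sided), which is the lowest that 4 against 4 allows, and the same value after adjustment over the 2 paralog pairs tested.

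Podocyte markers stood beside wt1a and wt1b in these libraries. The summed CPM of 6 podocyte markers, none of them at 0, was 173 to 227 in DMSO and 166 to 183 in TCDD, and 1 of the 6 (podxl) fell. The slit diaphragm gene nphs1 was present in both groups (8.68 CPM in DMSO and 8.53 CPM in TCDD). For every 1000 CPM of podocyte markers there were 24.8 to 34.3 CPM of wt1a in DMSO and 22.0 to 38.0 CPM in TCDD. The retinoic acid synthesis gene aldh1a2, the other epicardial marker, did not pass (94.0 and 70.1 CPM; -0.42 ± 0.16, adjusted p = 0.138). The part of podocytes in the wt1a and wt1b values was not tested.

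The ratio of tbx18 to tcf21, a pair chosen after its values were seen and given with no test, separated the groups. In TPM it was 0.272, 0.682, 0.594 and 0.738 in the 4 DMSO libraries and 1.22, 1.5, 1.33 and 1.74 in the 4 TCDD libraries. The summed TPM of all 4 epicardial members overlapped, at 15.2 to 18.5 in DMSO and 16.2 to 21.6 in TCDD. On this scale the median over all genes was also higher in TCDD (3.93 TPM) than in DMSO (3.18 TPM).

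**Figure D2:**
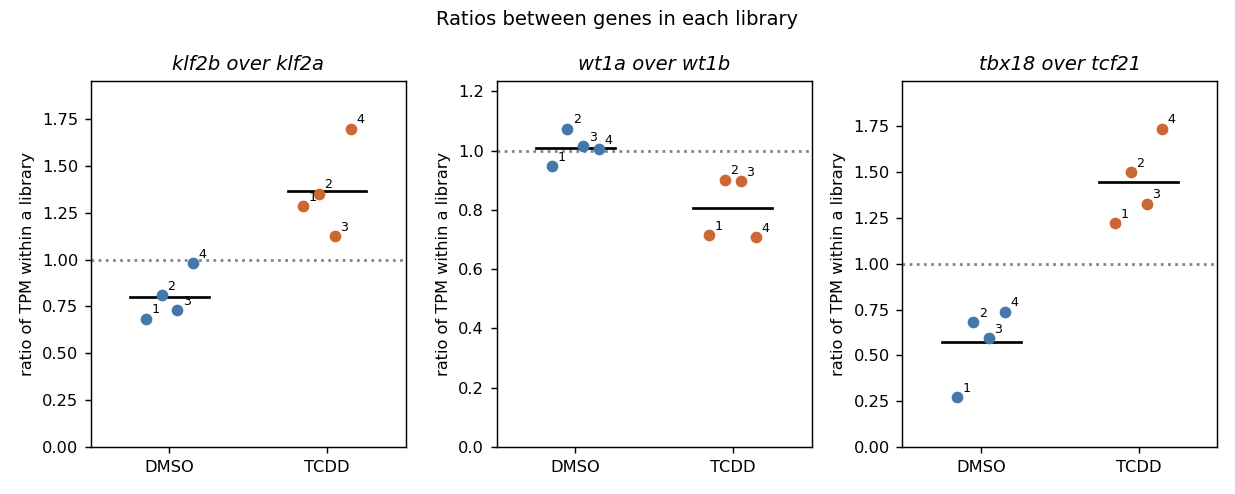
Ratios of TPM within each library (vertical axes from 0), with the replicate number beside each point, the group mean as a line and a dotted line at 1. The ratio of klf2b to klf2a is 0.685 to 0.982 in DMSO and 1.13 to 1.70 in TCDD, that of wt1a to wt1b is lower in all 4 TCDD libraries, and that of tbx18 to tcf21 crosses 1.

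Among 19 other epicardial and proepicardial genes 3 fell and 0 rose (15.8% called, against 5.72% of all genes tested). Their median change on the log2 scale was -0.22 (-0.075 with library size alone, which moved the median of all genes to 0.13). It was -0.103 without DMSO 1 and -0.088 without DMSO 1 and TCDD 2 together, and -0.252 to -0.162 when any other single library was left out. The link protein gene hapln1a, whose product ties hyaluronan to proteoglycans, fell from 115 ± 11.2 to 55.6 ± 5.88 CPM (-1.05 ± 0.11, adjusted p = 0.000557). The chemokine gene cxcl12a, which guides migrating cells, fell from 139 ± 15.7 to 68.1 ± 7.45 CPM (-1.03 ± 0.12, adjusted p = 0.000716). The transglutaminase gene tgm2b fell from 60.7 ± 18.5 to 33.5 ± 3.22 CPM (-0.86 ± 0.18, adjusted p = 0.0177). These 3 calls were kept in all 18 other fits. None of the 3 is limited to the epicardium.

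The flow-induced paralogs klf2a (NCBI gene 117508) and klf2b (NCBI gene 117509) lay on opposite sides of 0 by their values, and neither passed the test. Their products are Krüppel-like factors of endothelial cells, and klf2b is also expressed in the epidermis of the embryo. For klf2a the libraries held 93.5, 78.8, 85.7 and 74.2 CPM in DMSO and 70.6, 57.4, 66.6 and 56.6 CPM in TCDD. In these TMM-scaled values all TCDD libraries were below all DMSO libraries, while on library size alone the groups overlapped. The difference did not pass (-0.40 ± 0.11, adjusted p = 0.060). Of the other fits 4 called it, namely DESeq2 (adjusted p = 0.0162), the replicate block (0.0353), offsets for length (0.0419) and the fit without DMSO 2 (0.0443). The rest did not, among them limma-voom (0.0662) and library size alone (-0.267, adjusted p = 0.176). For klf2b the libraries held 112, 111, 109 and 127 CPM in DMSO and 158, 136, 130 and 167 CPM in TCDD. All TCDD libraries were above all DMSO libraries, and this difference did not pass either (0.37 ± 0.11, adjusted p = 0.0832). Of the 18 other fits 2 called it, DESeq2 (0.0224) and library size alone (0.0477). Limma-voom (0.091) and offsets for length (0.28, adjusted p = 0.171) were among those that did not.

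The ratio between both paralogs changed by more than the spread. The log2 ratio of klf2a to klf2b in CPM was -0.47 ± 0.23 (SD) in DMSO and -1.23 ± 0.25 in TCDD, and the groups did not overlap. The difference of -0.76 gave p = 0.0286 in the same exact permutation test, its lowest possible value, also after adjustment over the 2 pairs. The implied lengths of klf2a and klf2b were 1931 and 3364 bases. Genes of 1000 to 2000 bases had a median change of -0.051 on the log2 scale, and those of 2000 to 4000 bases 0.054. With offsets for length the log2 fold changes were -0.406 (klf2a) and 0.28 (klf2b), against -0.403 and 0.366 in the main fit. The ratio itself was not tested with these offsets. In TPM klf2b was below klf2a in 4 of 4 DMSO libraries and above it in 4 of 4 TCDD libraries, while the sum of both overlapped (60.4 to 88.8 TPM in DMSO and 81.1 to 99.9 TPM in TCDD). The higher median TPM of all genes in TCDD, given above, bears on this sum but not on the order within a library. All 80 deposited counts of the 10 members were exactly whole, while 11.4 to 12.0% of all genes in a library had a count with a fraction.

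Endothelial markers were lower in TCDD as well. The summed CPM of 12 endothelial and endocardial markers, none of them at 0, was 356 to 408 in DMSO and 301 to 346 in TCDD, with no overlap, and 3 of the 12 fell while 0 rose. Those were the receptor kinase gene tek (20.1 to 9.02 CPM; -1.16 ± 0.18, adjusted p = 0.00374), the transcription factor gene sox18 (21.5 to 12.0 CPM; -0.83 ± 0.12, adjusted p = 0.0030) and clec14a (34.6 to 20.9 CPM; -0.73 ± 0.18, adjusted p = 0.0358). For every 1000 CPM of these markers there were 203 to 213 CPM of klf2a in DMSO and 170 to 219 CPM in TCDD, so that relative to the endothelial list klf2a overlapped between the groups. For klf2b the same measure was 255 to 348 CPM in DMSO and 402 to 607 CPM in TCDD, without overlap. The summed CPM of 5 skin markers, none of them at 0, overlapped (7903 to 9247 in DMSO and 6740 to 9160 in TCDD), and most of this sum was the keratin gene krt4. Of the 5, 1 rose and 0 fell, with a median of 0.34 on the log2 scale. The claudin gene cldne rose with no overlap (173 ± 9.63 CPM in DMSO, 292 ± 35.3 CPM in TCDD; 0.75 ± 0.12, adjusted p = 0.00447), and the epidermal transcription factor gene tp63 did not pass (66.2 and 83.7 CPM; 0.34 ± 0.12, adjusted p = 0.131). The keratin genes krt4 (-0.26 ± 0.18, adjusted p = 0.435) and krt5 (-0.32 ± 0.25, adjusted p = 0.481) lay below 0 and did not pass. The keratin gene krt1-19d lay above 0 and did not pass either (0.73 ± 0.42, adjusted p = 0.35). The part of skin in the klf2b values was not tested.

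Among 20 genes of flow sensing and endocardial signalling around klf2, such as the mechanosensitive channel genes piezo1 and trpv4 and the cerebral cavernous malformation genes krit1 and ccm2, edgeR called 0. Of all genes tested edgeR called 5.72%. In this list of 20 genes 4 had an unadjusted p under 0.05 (22.0% of all genes tested did), DESeq2 called 1 and limma-voom called 0. The median change was -0.01 on the log2 scale (0.12 with library size alone, and -0.063 without TCDD 2 to 0.034 without DMSO 1).

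The Notch receptor gene notch1b (NCBI gene 794892), which acts in the endocardium of the canal and is widely expressed in the nervous system, did not pass. Its levels were 26.5, 33.4, 34.1 and 30.9 CPM in DMSO and 29.0, 24.1, 26.5 and 26.8 CPM in TCDD. The groups overlapped through DMSO 1, the lowest DMSO library (-0.23 ± 0.11, adjusted p = 0.252; 0.129 without DMSO 1). DMSO 1 was also lowest in the summed CPM of 7 neural markers (541 against 812 to 1302 in the other 7 libraries), whose part in the notch1b values was not tested. Of 24 other genes of the Notch pathway 1 fell and 0 rose (4.17% called, against 5.72% of all genes tested). Their median was 0.06 (-0.02 with offsets for length, 0.193 with library size alone, and 0.035 without TCDD 2 to 0.115 without TCDD 4). The gene called was hey2, whose product is a transcriptional repressor downstream of Notch. It fell from 7.30 ± 0.653 to 4.24 ± 0.453 CPM (-0.78 ± 0.15, adjusted p = 0.0107, and 0.0535 without both DMSO 1 and TCDD 2). Relative to 1000 CPM of endothelial markers, hey2 was at 16.02 to 20.1 CPM in DMSO and 10.7 to 15.7 CPM in TCDD. By the same measure notch1b overlapped between the groups, at 60.3 to 86.3 CPM in DMSO and 71.4 to 97.4 CPM in TCDD.

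The gene nfatc1 (NCBI gene 568315) encodes the calcineurin-activated factor of valve endocardium. Its levels were 12.8, 12.4, 11.9 and 6.91 CPM in DMSO and 7.02, 6.10, 7.60 and 6.95 CPM in TCDD. The first 3 DMSO libraries were above all TCDD libraries, while DMSO 4 lay within the TCDD range. The difference over all 8 libraries did not pass (-0.67 ± 0.19, adjusted p = 0.0599), and without DMSO 4 it was called (-0.84, adjusted p = 0.00857). The other 7 fits that left out 1 library did not call it (adjusted p from 0.0875 to 0.164), nor did limma-voom (0.105), while DESeq2 (0.021) and offsets for length (0.039) did. Relative to 1000 CPM of endothelial markers nfatc1 overlapped, at 19.0 to 32.1 CPM in DMSO and 18.1 to 25.2 CPM in TCDD. Of 17 other genes of calcineurin and NFAT 1 rose and 0 fell (5.88% called, against 5.72% of all genes tested). Their median was 0.03 (0.16 with library size alone, -0.019 without DMSO 1, -0.013 without TCDD 4, 0.103 without DMSO 2, 0.093 without TCDD 2, 0.061 without DMSO 4, 0.056 without TCDD 3 and -0.002 with offsets for length). The family member nfatc4, whose product is also activated by calcineurin, rose from 9.62 ± 2.23 to 24.7 ± 4.2 CPM (1.36 ± 0.18, adjusted p = 0.00159), a call kept in all 18 other fits. Its levels were 12.3, 7.95, 7.62 and 10.6 CPM in DMSO and 23.8, 30.6, 23.8 and 20.6 CPM in TCDD.

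The synthase gene has2 (NCBI gene 260350) makes the hyaluronan of the cardiac jelly and is also used in cartilage and the inner ear. It was the least abundant member, with 16 to 30 estimated counts per DMSO library and 9 to 13 per TCDD library. In CPM these were 1.28, 1.62, 2.10 and 1.19 in DMSO and 0.810, 0.901, 0.600 and 0.579 in TCDD, all above the floor of 3 counts. Every TCDD library was below every DMSO library, and has2 fell from 1.54 ± 0.412 to 0.723 ± 0.158 CPM (-1.09 ± 0.29, adjusted p = 0.0475). The call lay at the threshold: the sign was the same in all 18 other fits (-1.296 to -0.912) and 6 of them called it. Leaving out any 1 library other than DMSO 4 ended the call, with adjusted p = 0.0528 for DMSO 1, 0.0678 for DMSO 2, 0.153 for DMSO 3, 0.0944 for TCDD 1, 0.0763 for TCDD 2, 0.123 for TCDD 3 and 0.108 for TCDD 4. Nor did it hold without DMSO 1 and TCDD 2 together (0.0736), with limma-voom (0.0537), with library size alone (0.0863), with no filter (0.0555) and with the replicate block (0.0658).

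Of 21 tested genes of hyaluronan and the cushion matrix 3 fell and 1 rose (19.0% called, against 5.72% of all genes tested). Their median was -0.14 (-0.232 with offsets for length, -0.009 with library size alone). Leaving out 1 library gave medians from -0.281 (TCDD 2), -0.241 (DMSO 2) and -0.204 (DMSO 3) to -0.116 (TCDD 4). The falls were those of hapln1a, given above, of its paralog hapln1b (28.1 ± 1.69 to 17.6 ± 2.53 CPM; -0.68 ± 0.12, adjusted p = 0.00956) and of postna (81.2 ± 4.68 to 43.0 ± 12.0 CPM; -0.92 ± 0.18, adjusted p = 0.0149; 0.0513 without DMSO 3), the gene of the matrix protein periostin. The hyaluronan-degrading protein gene cemip rose from 31.4 ± 2.93 to 43.1 ± 3.12 CPM (0.46 ± 0.10, adjusted p = 0.0262). Leaving out DMSO 3 (0.0853), DMSO 4 (0.0553), TCDD 1 (0.0722), TCDD 2 (0.101), TCDD 3 (0.0744) or DMSO 1 together with TCDD 2 (0.123) ended the call of cemip. The other synthase gene of the files that passed the filter, has3, was at 6.31 ± 1.24 and 5.75 ± 1.27 CPM and did not pass (-0.13 ± 0.19).

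Cartilage markers moved beside these matrix genes. Of 7 cartilage markers 6 fell and 0 rose, none was at 0, and their summed CPM was 5815 to 8171 in DMSO and 4366 to 5150 in TCDD. For every 1000 CPM of cartilage markers there were 0.153 to 0.297 CPM of has2 in DMSO and 0.127 to 0.180 CPM in TCDD, with overlap. The same measure overlapped for hapln1b (3.40 to 4.13 and 3.50 to 4.37 CPM) and postna (9.81 to 12.2 and 6.49 to 10.6 CPM), and it did not overlap for hapln1a (12.9 to 18.1 and 10.98 to 12.7 CPM).

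The gene bmp4 (NCBI gene 30612) encodes the bone morphogenetic protein of the canal's heart muscle and of many other embryonic tissues. Its levels were 20.2, 18.5, 15.02 and 21.4 CPM in DMSO and 24.2, 31.7, 27.9 and 22.3 CPM in TCDD. The groups did not overlap, but TCDD 4 lay close to DMSO 4, and the difference did not pass (0.50 ± 0.15, adjusted p = 0.0694). Of the 18 other fits 2 called it, DESeq2 (0.030) and library size alone (0.0281). Limma-voom (0.0803) and offsets for length (0.114) were among those that did not. For every 1000 CPM of cardiomyocyte markers there were 10.1 to 15.1 CPM of bmp4 in DMSO and 20.8 to 26.5 CPM in TCDD. Of those 9 markers 2 (myl7 and myh7) fell, and actc1a had the highest level (786 CPM in DMSO, 615 CPM in TCDD). Relative to 1000 CPM of cartilage markers, bmp4 was at 2.13 to 2.87 CPM in DMSO and 5.37 to 6.30 CPM in TCDD. The part of the marker sums in these ratios was not tested.

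Of 36 other tested genes of the BMP pathway 2 rose and 4 fell (16.7% called, against 5.72% of all genes tested). Their median was -0.11 (0.026 with library size alone, and -0.151 without DMSO 2 to -0.066 without DMSO 1). The ligand gene bmp7b rose from 12.1 ± 1.55 to 20.2 ± 2.21 CPM (0.74 ± 0.13, adjusted p = 0.00852). The other rise was that of the antagonist gene fstb (0.38 ± 0.10, adjusted p = 0.0465). The falls included 3 of the 5 inhibitor of DNA binding genes on the list, which BMP signalling induces. The gene id1 fell from 618 ± 118 to 298 ± 41.7 CPM (-1.05 ± 0.16, adjusted p = 0.00391), id2b from 18.6 ± 3.26 to 9.51 ± 0.698 CPM (-0.96 ± 0.14, adjusted p = 0.00329) and id3 from 43.8 ± 5.19 to 31.1 ± 3.47 CPM (-0.50 ± 0.12, adjusted p = 0.0342). The remaining fall was that of the antagonist gene grem2b (-0.93 ± 0.23, adjusted p = 0.0387), which with fstb is named to complete the count. Among the genes of the list that did not pass were id4 (-0.32 ± 0.12, adjusted p = 0.141) and 3 Smad genes. These were smad6a (-0.0034 ± 0.11, adjusted p = 0.99), smad6b (-0.083 ± 0.16, adjusted p = 0.801) and smad7 (-0.18 ± 0.096, adjusted p = 0.308). Whether BMP signalling itself changed was not tested.

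The implied lengths of id1, id2b, id3 and grem2b were 754, 749, 928 and 636 bases, in the range below 1000 bases described for tcf21. With offsets for length 2 falls were left in the BMP list, and id1 and id2b were called in all 18 other fits. The call of id3 was lost in 10 of 18, with adjusted p from 0.053 (without TCDD 4) to 0.109 (library size alone). The falls numbered 2 with library size alone and in the fits that left out any 1 library other than DMSO 2, and 5 without DMSO 2. The rises numbered 1 in 7 of the 8 fits that left out 1 library, all except that without DMSO 4.

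In the list of the atrioventricular canal, endocardial transition and valve mesenchyme 1 of 24 tested genes rose, 1 fell and 22 did not pass. The share called was 8.33%, against 5.72% of all genes tested. The median was -0.13 (0.011 with library size alone, and -0.184 without DMSO 2 to -0.079 without TCDD 4). The T-box repressor gene tbx2b, which keeps the canal's muscle from becoming chamber muscle, rose from 73.5 ± 4.54 to 108 ± 15.8 CPM (0.56 ± 0.12, adjusted p = 0.0199). Leaving out DMSO 3 (0.0818), TCDD 1 (0.0671), TCDD 2 (0.0733), TCDD 3 (0.0623) or DMSO 1 together with TCDD 2 (0.0605) ended the call. The zinc finger repressor gene snai2, a factor of epithelial to mesenchymal transition, fell from 52.3 ± 2.98 to 35.4 ± 1.12 CPM (-0.56 ± 0.091, adjusted p = 0.0050), a call kept in all 18 other fits.

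**Figure D3:**
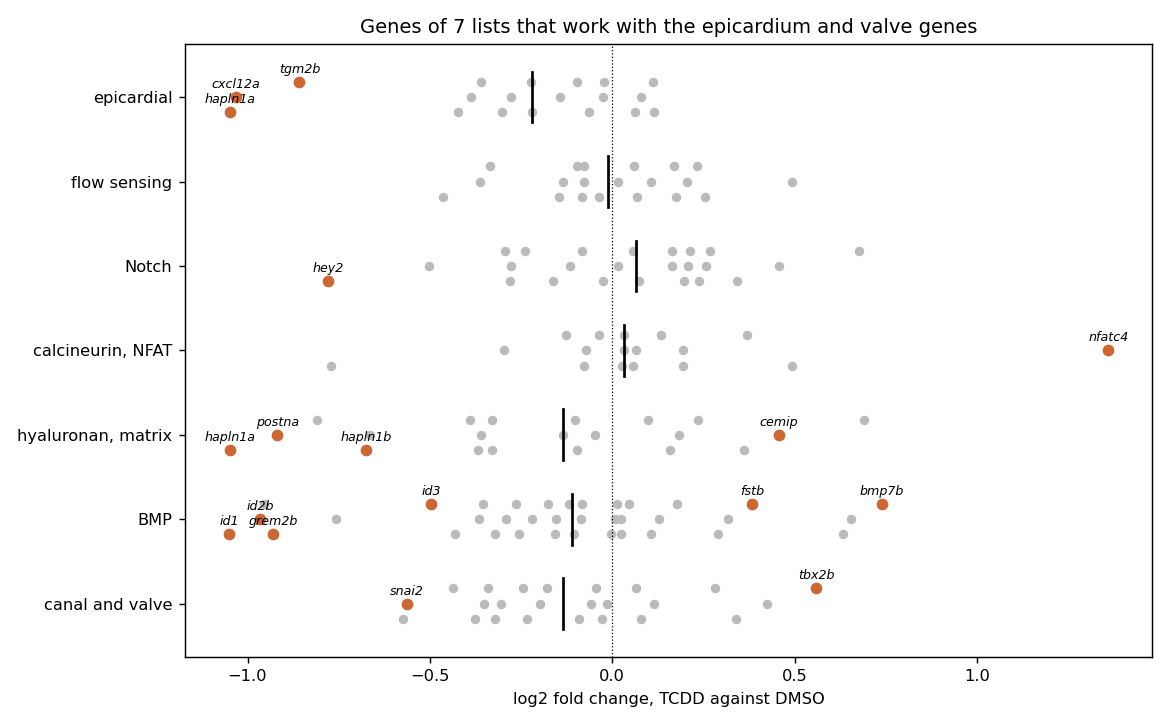
Log2 fold change of TCDD against DMSO (horizontal axis) for each tested gene of the 7 lists, 1 point a gene, with called genes in colour and by name and the list's median as a vertical line. The medians lie between -0.22 and 0.06, and nfatc4 (1.36) and hapln1a (-1.05) are among the called genes far from them.

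**Figure D4:**
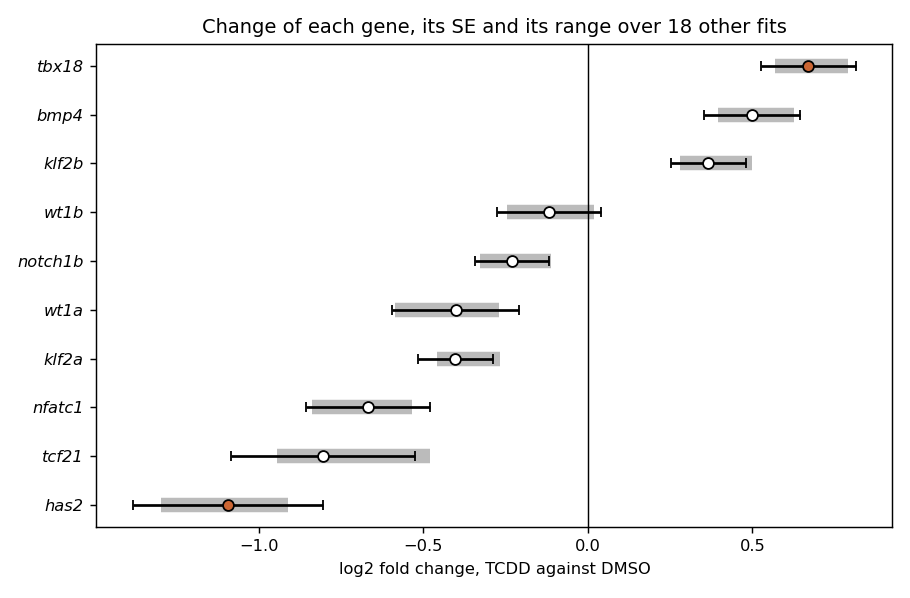
Log2 fold change of TCDD against DMSO for the 10 members (horizontal axis, points with SE as bars, filled where adjusted p was under 0.05), with the range over the 18 other fits in grey. The ranges of 9 members stay on 1 side of 0 and that of wt1b (-0.247 to 0.018) crosses it.

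Genes with the most similar pattern were found by the root mean square difference of centred log2(CPM + 0.5) over the 8 libraries. The candidates were 15757 other tested genes whose mean reached 1 CPM and whose symbol was not a clone name. The nearest to tbx18 was nbeal2 (difference 0.078), which rose (6.17 CPM in DMSO, 9.85 CPM in TCDD; adjusted p = 0.0174). The nearest to tcf21 was the claudin gene cldn15a (0.070), whose DMSO 1 value of 80.0 CPM also stood above the 34.3 to 43.0 CPM of the other DMSO libraries. The nearest to wt1a was the transporter gene slc2a10 (0.089), and the nearest to wt1b was the Rh glycoprotein gene rhag (0.061). For klf2a it was med8 (0.061), for klf2b olfm1b (0.064), for notch1b ebf1a (0.058) and for nfatc1 casp17 (0.118). The least close match was that of has2, with the chondroitin sulfate synthesis gene csgalnact1b (0.155), and the nearest to bmp4 was ak5l (0.106). No member was the nearest gene of another member.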

How the data were processed

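The authors deposited 3 values per gene and library for 25725 genes. The estimated count was deposited with no normalization, and the TPM and FPKM were scaled by the authors for length and library size. Bowtie2 is among the tools, and GRCz11 is the build, that the submitters' processing notes list. The quantifier is not given in the sources used here, nor is the annotation, and no coordinates or sequences were used. Expected counts were rounded and tested in R 4.3.3 with edgeR 4.0.16 (robust quasi-likelihood F-test, TMM factors, filterByExpr on the groups, two-sided), and called at an adjusted p under 0.05. This procedure was tested on simulated data with a common spread for every gene and with set changes larger than those of most members. That test does not show how smaller changes are found. The SE is the size of the log2 fold change over the square root of F. Paralog ratios used log2 of CPM + 0.1 and exact permutation tests. Implied transcript lengths came from the ratio of count to FPKM and were not checked against an annotation. Floors cover the error of counting alone, because PCR copies could not be told apart without molecular identifiers. Of 241 list memberships 237 were matched by symbol, 3 by synonym and 1 was not matched. The members and the lists were chosen with earlier results of these data known. Genes named by rule are the 10 members, up to 4 called genes with the smallest p in each pathway list, and the nearest gene to each member. Marker genes of cell types, and has3, fstb, grem2b, id4, smad6a, smad6b and smad7, are named with values outside this rule. Summed CPM of cell type lists used library size alone. The values of 1 marker gene are not reported here. Alternatives used DESeq2 1.42.0, limma 3.58.1 (voom), other factors, filters and thresholds, offsets from a smooth on implied length (span 0.3), a replicate block, and libraries left out. Other software was matplotlib 3.10.9, SciPy 1.17.1, pandas 2.3.3, numpy 2.4.6 and Python 3.11.15.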

Additional observations from a re-analysis of the deposited data

Results flagged for a closer look

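Among 48 groups of 4 libraries screened for a value far from the others (the 10 members and the named pathway genes), 2 were found, and chance gives about 1 in 20. For nfatc1 the value of DMSO 4 was 6.91 CPM, and its gap to the next DMSO library was 0.858 of the group's range. For cxcl12a the value of DMSO 1 was 163 CPM, above the 130 to 133 CPM of the other DMSO libraries, with a gap of 0.891 of the range.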

How the results depend on the processing

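Of 180 values of single members under the 18 other fits, 179 kept their sign; the exception was wt1b with library size alone (0.018). Members called higher numbered 3 with DESeq2, with library size alone and at adjusted p under 0.1, and 0 at adjusted p under 0.01 and without both DMSO 1 and TCDD 2. Members called lower numbered 3 with DESeq2, with offsets for length and at adjusted p under 0.1, and 0 with limma-voom, library size alone, no filter, without both DMSO 1 and TCDD 2 and at adjusted p under 0.01. Leaving out 1 library gave 0 to 1 members higher and 0 to 2 lower. Of all genes, 932 were higher and 1050 lower with DESeq2, 937 and 372 with library size alone, 338 and 278 without both DMSO 1 and TCDD 2, 995 and 1075 at adjusted p under 0.1, and 191 and 136 at adjusted p under 0.01, against 614 and 560; leaving out 1 library gave 294 to 682 higher and 229 to 1172 lower. Pathway genes called higher numbered 2 at adjusted p under 0.01 and without both DMSO 1 and TCDD 2, and those lower 6 at adjusted p under 0.01; leaving out 1 library gave 2 to 5 higher and 8 to 14 lower. The fits without libraries have fewer samples; the cause of these differences was not tested. The replicate numbers were not taken to pair the samples: the deviations of same-numbered libraries correlated at -0.274, -0.224, 0.096 and 0.292, and the replicate block called 1347 genes against 1174. The largest correlation was that of DMSO 1 with TCDD 2 (0.525), the libraries that stood apart on the second component, and its source was not tested. Under the block the paralog differences were -0.3 (wt1a over wt1b) and -0.765 (klf2a over klf2b), each with an exact sign-flip permutation p = 0.125, the smallest possible. Without both DMSO 1 and TCDD 2 they were -0.368 and -0.693 (exact permutation p = 0.1, the smallest possible), and leaving out 1 library gave -0.358 to -0.248 and -0.867 to -0.655 (0.0571, the smallest possible). The counts of has2 were 9 to 30 per library, so its values have the least depth of the 10 members; the part of depth in its call was not tested.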

Other observations

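Markers of other cell types are given as summed CPM on library size alone, with no test. The 5 smooth muscle markers were at 314 to 412 CPM in DMSO and 232 to 290 CPM in TCDD, without overlap, and 2 of them fell, tagln (57.2 to 27.2 CPM; -1.07 ± 0.22, adjusted p = 0.0157 by edgeR) and myh11a (83.4 to 52.9 CPM; -0.65 ± 0.17, adjusted p = 0.0454). For every 1000 CPM of them there were 12.2 to 22.0 CPM of tbx18 in DMSO and 40.9 to 51.0 CPM in TCDD. Relative to 1000 CPM of cartilage markers, tbx18 was at 0.861 to 1.09 CPM in DMSO and 2.184 to 2.805 CPM in TCDD. The part of the marker sums in these ratios was not tested. The groups overlapped for fibroblasts (2956 to 3621 and 2130 to 3099 CPM), kidney tubules (500 to 779 and 480 to 593 CPM), skeletal muscle (7338 to 9208 and 6872 to 9910 CPM), liver (25009 to 38889 and 28093 to 33718 CPM) and cardiomyocytes (1324 to 1650 and 918 to 1398 CPM). No marker of these lists was at 0 in every library, and 1 kidney tubule marker was at 0 in some.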
